A study of Oryzias latipes with 18 samples.

Results

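Forkhead (FOX) genes encode transcription factors (TFs) with a winged helix domain that binds DNA. Of the 1646 genes in the study's list of medaka TF genes, 62 are placed in the forkhead family, and these 62 genes on 21 chromosomes are described here with the accessible elements around them. Open chromatin was mapped by ATAC-seq, in which a transposase cuts accessible DNA and leaves closed DNA mostly uncut, in whole medaka embryos at stages 11, 15, 19, 25, 29, 32, 36, 38 and 40. Each of the 9 stages had 2 replicates, 18 libraries in all. Every embryo had a Qurt parent and a parent of the line d-rR-Tg(olvas-GFP), so all stages share this background, which carries a green fluorescent protein under the control of the medaka vasa gene, a marker of germ cells. The stages were combined by the authors into 1 list of 149539 elements. For each element the list gives a position, a score and the number of stage peaks merged into it. The score was taken as a −log10 q from the peak caller, so that a higher score means a stronger enrichment of reads. It depends on depth and on the width of a peak as well as on how open the DNA was. The median score over the list was 30.8, the lowest 7.05 and the highest 2972.

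The list holds 1 value per element for all stages together. No replicate error, no stage and no test between stages can be given from it, and genes are not replicates of each other, so values of the forkhead genes are set beside those of the other 1584 TF genes as descriptions. An element merged from 9 or more peaks may have been called at every stage and an element of 1 peak was called once, but the list does not name the stages. In whole embryos, an element open in few cells and an element weakly open in many cells cannot be told apart.

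FOX proteins are grouped into classes by letter. FOXA proteins are pioneer factors that bind closed chromatin and are known for endoderm, floor plate and notochord. FOXC, FOXD and FOXF genes act in mesoderm, neural crest and gut mesenchyme, FOXH in Nodal signalling, FOXJ1 in motile cilia, FOXM in cell division, FOXO downstream of insulin and FOXP in brain, lung and immune cells. Many of these genes are expressed in narrow domains of the embryo, while FOXK and FOXO genes are known as broadly expressed in mammals.

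All 62 genes were matched to 62 distinct RefSeq genes of the assembly ASM223467v1. A FOX name was taken from the RefSeq symbol for 28 of them and from the study's table of TF motifs for 18. The other 16 have a RefSeq ID only, are called by it and are given no class. The start of a gene, taken here as its transcription start site (TSS), lay within 100 bp of the RefSeq start for 28 genes, over 1 kb downstream of it for 4 and over 1 kb upstream for 3. The largest gaps were 157 kb at LOC101173216, 38.7 kb at the foxj3 gene on chromosome 5, 26.4 kb at the foxo3 gene on chromosome 22 and 13.6 kb at foxp3, so that TSS values of these genes depend on the gene model. The gene bodies were short, with a median length of 3457 bp against 8420 bp for the other TF genes, and 39 of the 62 were no longer than 5 kb. The median length was 4437 bp for Homeobox genes, 4594 bp for bHLH genes and 8469 bp for HMG genes.

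Forkhead genes lay among many accessible elements. Within 50 kb of the TSS they had a median of 28.5 elements (quartiles 24 and 34, range 6 to 50), against 25 (quartiles 17 and 32, range 0 to 64) for the other TF genes. Among the 52 forkhead genes whose windows do not overlap that of another forkhead gene, the median was 26.5. Other TF genes were not reduced in this way. The mean was 29.3 ± 8.67 (SD over 62 genes) for forkhead genes and 24.3 ± 11.7 (SD over 1584 genes) for the others. The distributions thus overlapped widely. Homeobox genes had a median of 29, bHLH genes 28 and HMG genes 24, while the 578 C2H2 zinc finger genes had 19. Among the 22 TF families with at least 10 genes, the forkhead median ranked 6. Forkhead windows made 1816 pairs of a gene and an element and held 1656 distinct elements, since 99 elements lay in the windows of more than 1 forkhead gene. Elements covered a median of 9.18% of the forkhead windows and 7.35% of the windows of other TF genes. In bp per window the median was 9180 for forkhead, 8970 for Homeobox, 8523 for bHLH and 7660 for HMG genes.

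The gene with the most elements was foxc1, a regulator of head and somite mesoderm, with 50. It was followed by foxp4 with 47. The cilia gene foxj1 and the foxo3 gene on chromosome 24 had 44 each. The brain gene foxp2 and LOC101162366 had 43 each, foxa2 and the ovary gene foxl2 had 42 each, foxf2 had 41 and LOC101164223 had 40. These 10 genes differ in where their elements lay. Around foxc1, 24 of the 50 lay inside another gene, and foxc1 was the closest gene of only 8. Of its elements 37 also lay in the window of another forkhead gene, as did all 41 of foxf2 and 38 of the 40 of LOC101164223. These 3 genes are neighbours on chromosome 4, so their numbers largely count the same elements. In foxp4, 35 of the 47 lay inside the gene away from its TSS, and in foxp2 26 of 43 did. In foxl2, 22 of the 42 lay between genes, while around foxj1 17 of 44 lay within 1 kb of an end of another gene.

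At the other end, 5 genes had fewer than 20 elements. The regulatory T cell gene foxp3 had 6, foxr2 had 12 and foxm1, which drives cell division genes, had 15. LOC101160853 and LOC101173418 had 19 each. A low number did not go with a weak TSS element in every case, since LOC101160853 had 1 of the strongest TSS elements of the family and LOC101173418 the weakest.

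**Figure D1:**
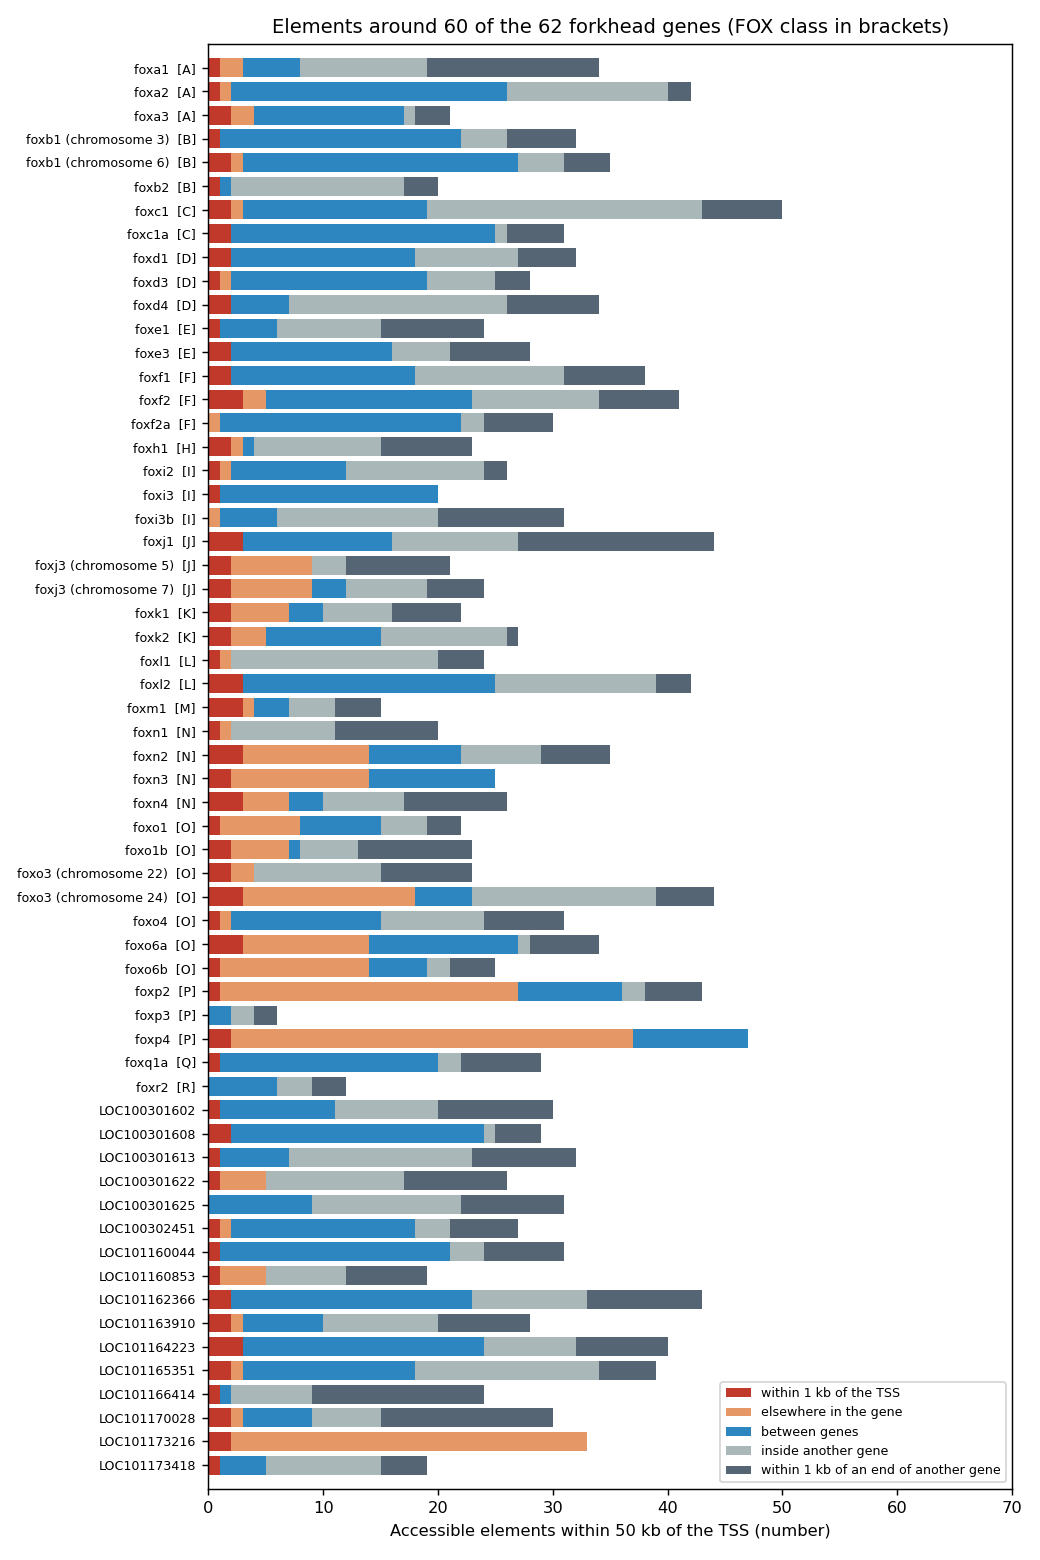
Number of accessible elements within 50 kb of the TSS (x axis) for 60 of the 62 forkhead genes (rows, FOX class in brackets), split by where the elements lay. The bars run from 6 elements at foxp3 to 50 at foxc1. In foxp4, foxp2 and LOC101173216 most of the bar is inside the gene.

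By position, 635 of the 1816 pairs (35.0%) lay between genes, 470 (25.9%) inside another gene, 382 (21.0%) within 1 kb of an end of another gene, 229 (12.6%) elsewhere in the forkhead gene and 100 (5.51%) within 1 kb of the TSS. The forkhead gene was the closest gene of 607 pairs (33.4%). Elements at an end of another gene had a median score of 47.5, and elements at the forkhead TSS had 47.3. Either end of another gene was used, so the 47.5 mixes starts with far ends of genes, while the 47.3 covers starts only. Elements between genes had 31.4, elements elsewhere in the forkhead gene 32.0 and elements inside another gene 29.8. Of the elements at an end of another gene 30.1% were merged from 9 or more peaks, of those at the TSS 28%, and of those between genes 6.14%. The forkhead gene was the closest gene of all 47 elements around foxp4 and of none around foxp3 or foxr2.

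The difference in number from the pooled other TF genes lay more on the side of the gene. Upstream of the TSS forkhead genes had a median of 12 elements and other TF genes 11, while downstream they had 14.5 and other TF genes 11. Homeobox genes had medians of 13 upstream and 15 downstream, bHLH genes 13 and 14, and HMG genes 10 and 12. More elements downstream than upstream were thus not particular to forkhead genes. Per gene and kb, forkhead genes had 0.381 elements 5 to 10 kb downstream, against 0.249 for other TF genes, and 0.339 elements 10 to 20 kb downstream, against 0.249. At 40 to 50 kb upstream the values were 0.224 for forkhead genes and 0.21 for other TF genes. Since 39 forkhead genes were no longer than 5 kb, for these the stretch 5 to 20 kb downstream lay beyond the gene.

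**Figure D2:**
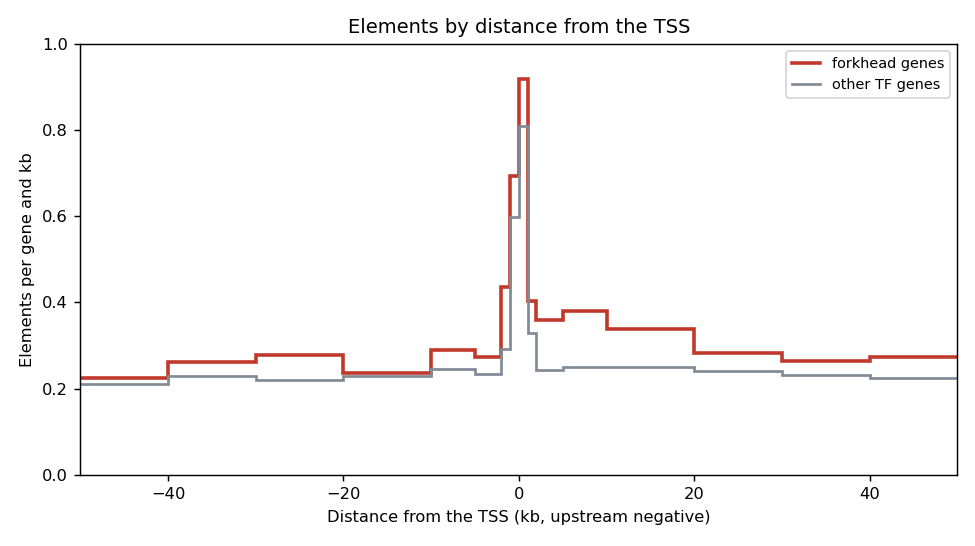
Elements per gene and kb (y axis) by distance from the TSS in kb (x axis, upstream negative), for the 62 forkhead genes and the 1584 other TF genes. Both lines peak in the first kb downstream, at 0.919 for forkhead genes and 0.809 for other TF genes, and the forkhead line lies above the other in each distance bin drawn.

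An element with its midpoint within 1 kb of the TSS was found for 57 of the 62 forkhead genes (91.9%). The share among other TF genes was 83.8%, among Homeobox genes 93.4% and among bHLH genes 93.0%. For 47 forkhead genes (75.8%) the element lay over the TSS itself, against 62.9% of other TF genes. This share was 59.0% for Homeobox genes and 69.8% for both bHLH and HMG genes. A single TSS element was found for 23 genes, 2 for 25 genes and 3 for 9 genes.

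In the median, these TSS elements had lower scores than those of other TF genes. The strongest TSS element of a forkhead gene had a median score of 74.6 (quartiles 39.3 and 175, range 15.2 to 689, n = 57 genes), against 121 (quartiles 51.9 and 247, n = 1327) for other TF genes, and ranked 18 among the 22 families. The Homeobox median was 68.4, the bHLH median 144 and the HMG median 186. A score of at least 100 was reached by 21 of 62 forkhead genes (33.9%), against 47.2% of other TF genes. The share was 34.8% for Homeobox, 59.7% for bHLH and 60.3% for HMG genes. An element merged from 9 or more peaks stood at the TSS of 23 forkhead genes (37.1%), against 47.3% of other TF genes. For Homeobox genes this was 33.9%, for bHLH genes 48.8% and for HMG genes 63.5%. In width the elements were alike, with a median of 355 bp at forkhead and 331 bp at other TF genes. In 10 genes the TSS element scored below the median of the whole list, and in 3 genes it came from a single peak. The shares of other TF genes for these counts were not taken, so they show no trait of forkhead genes. Among other TF genes the strongest TSS element also went down to a score of 7.64 and to 1 peak.

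The classes differed in the TSS element. Both FOXK genes, which act in metabolism and autophagy in mammals, had strong ones. The foxk2 element (chr8:2053014-2053588) had a score of 610 and 10 merged peaks, and the foxk1 element (chr1:21999159-21999626) had 283 and 11 peaks. FOXN genes held the highest and 1 of the lowest values. At foxn2 the element (chr15:26113349-26113611) lay 11 bp from the TSS with a score of 689 and 9 peaks, the highest of the family. At foxn3, a checkpoint gene, the score was 402 with 9 peaks, and at foxn4, which acts in retinal neurons, 216 with 8 peaks. The thymus gene foxn1 had 17.5 from a single peak.

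FOXO genes, the targets of insulin signalling, had TSS elements merged from many peaks but of mixed scores. At 6 of the 7 the element came from 9 or more peaks. The scores were 269 at foxo4, 238 at foxo1, 135 at foxo1b, 107 at foxo3 on chromosome 22 (102 at its RefSeq start), 70.2 at foxo3 on chromosome 24, 60.1 at foxo6b and 39.3 at foxo6a. The foxo6b element (chr11:17978864-17980209) was the widest at a forkhead TSS with 1346 bp and held 18 peaks, and the element of foxo3 on chromosome 24 held 17. At foxo6a the element came from 3 peaks. A high number of merged peaks thus did not mean a high score in this class.

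The cell division gene foxm1 had a TSS element of 200.2 with 9 peaks (chr23:18847015-18847232), but its start lies 0.178 kb from that of tulp3, another TF gene on the opposite strand, and the element is shared by both starts. The RefSeq start of foxm1 lies 1.47 kb downstream, where the strongest element (chr23:18848617-18848856) had 249 with 9 peaks. That element also lay 45 bp from an end of rhno1. At foxh1, the partner of Smad proteins in Nodal signalling, the score was 195 with 4 peaks. The FOXP genes differed, with 274 and 9 peaks at foxp4, 20.9 and 6 peaks at foxp2, and no TSS element at foxp3. In FOXJ, the foxj3 gene on chromosome 5 had 559 and 13 peaks, the foxj3 gene on chromosome 7 had 88.3 and 8 peaks, and foxj1 had 88.7 and 6 peaks. The value on chromosome 5 rests on the start used, since no element lay within 1 kb of the RefSeq start of that foxj3 gene, 38.7 kb downstream.

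In FOXA, the TSS element had a score of 112 and 7 peaks at foxa3 and 74.6 and 6 peaks at foxa1. It had 73.7 and 6 peaks at foxa2, the gene of floor plate, notochord and endoderm. In FOXC, foxc1a had 81.6 with 7 peaks and foxc1 had 56.1 with 6 peaks. The FOXD elements came from 2 peaks each, with scores of 115 at foxd4, 41.9 at foxd1 and 36.5 at foxd3, a specifier of the neural crest. The foxd4 element also lay 348 bp from an end of cbwd1.

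In FOXB, whose genes mark the neural tube, the scores were 65.9 with 9 peaks on chromosome 3, 38.4 with 4 peaks on chromosome 6 and 25.2 with a single peak at foxb2. In FOXE, the thyroid gene foxe1 had 71.4 with 2 peaks and the lens gene foxe3 had 17.7 with 4 peaks. In FOXF, whose genes act in gut mesenchyme, foxf2 had 117 with 6 peaks and foxf1 had 67.3 with 5 peaks. In FOXI, foxi3, a gene of ionocytes in zebrafish, had 83.7 with 9 peaks, and foxi2, which the study's motif table calls foxi1, had 55.3 with 2 peaks. The FOXL genes were both near the lower end, with 19.3 and 4 peaks at foxl2 and 19.1 and a single peak at foxl1. The foxq1a element had 29.9 with 2 peaks.

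Grouped after these values had been seen, classes A to G, I, L and Q (24 genes) had a median TSS score of 66.6 over 22 genes, with 9 or more peaks in 3. Classes H, J, K, M, N, O, P and R (22 genes) had 198 over 20 genes, with 9 or more peaks in 13. In number of elements the order was the other way, with a median of 30.5 in the set that holds FOXA and 24.5 in the set that holds FOXO. The median gene length was 2.15 kb in the set with FOXA and 16.1 kb in the set with FOXO.

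**Figure D3:**
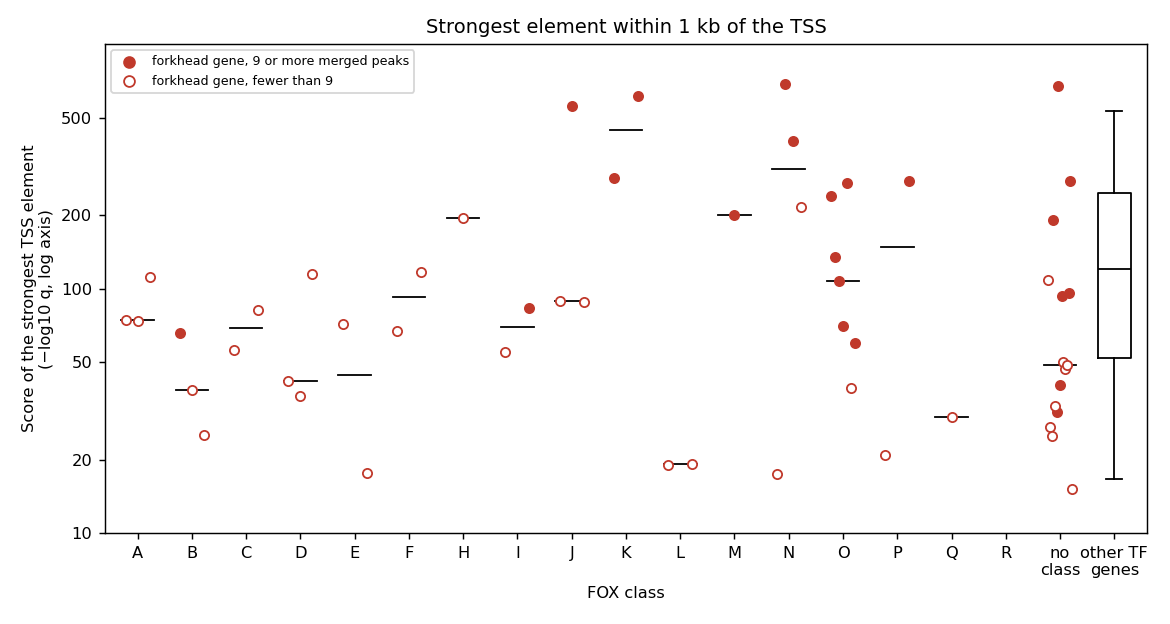
Score of the strongest element within 1 kb of the TSS (y axis, −log10 q, log axis) by FOX class (x axis), 1 point for each of 55 forkhead genes with a TSS element, with class medians as lines; the box at the right gives quartiles and the 5 to 95% range of the other TF genes. Class K lies at the top and class L near the bottom, class N spans 17.5 to 689, and class R has no TSS element.

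The 16 genes without a class spanned the range of the family. LOC101160853 had a TSS element of 676 with 17 peaks and a width of 846 bp (chr19:20150477-20151322), the second of the family after foxn2. LOC101173216 had 275 with 9 peaks, and at its RefSeq start 67.5 with 8 peaks. LOC100301622 had 191 with 10 peaks. LOC101173418 had the weakest of all, 15.2 with 3 peaks. The median over the 15 with a TSS element was 48.8. At LOC101160044 a score of 31.4 went with 10 merged peaks, and at LOC101162366 a score of 40.5 went with 9.

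TSS scores went with the length of the gene. Forkhead genes over 5 kb had a median TSS score of 216 (quartiles 88.3 and 283, n = 21 of 23 genes), and those up to 5 kb had 55.7 (quartiles 32.8 and 84.9, n = 36 of 39 genes). An element merged from 9 or more peaks stood at the TSS of 16 of 23 genes over 5 kb (69.6%) and of 7 of 39 up to 5 kb (17.9%). Among other TF genes the medians were 135 over 5 kb and 98.6 up to 5 kb, and the shares with 9 or more peaks 51.2% and 38.9%. Spearman's rho of length and TSS score was 0.60 over 57 forkhead genes and 0.14 over 1327 other TF genes. These points share all libraries, and the limit of 5 kb was chosen after the values had been seen. The lowest among the long genes were foxn1 and foxp2. Of the short genes, foxh1 with 195 stood highest. Length did not go with the number of elements in the same way, as genes over 5 kb had a median of 25 elements and those up to 5 kb had 30.

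**Figure D4:**
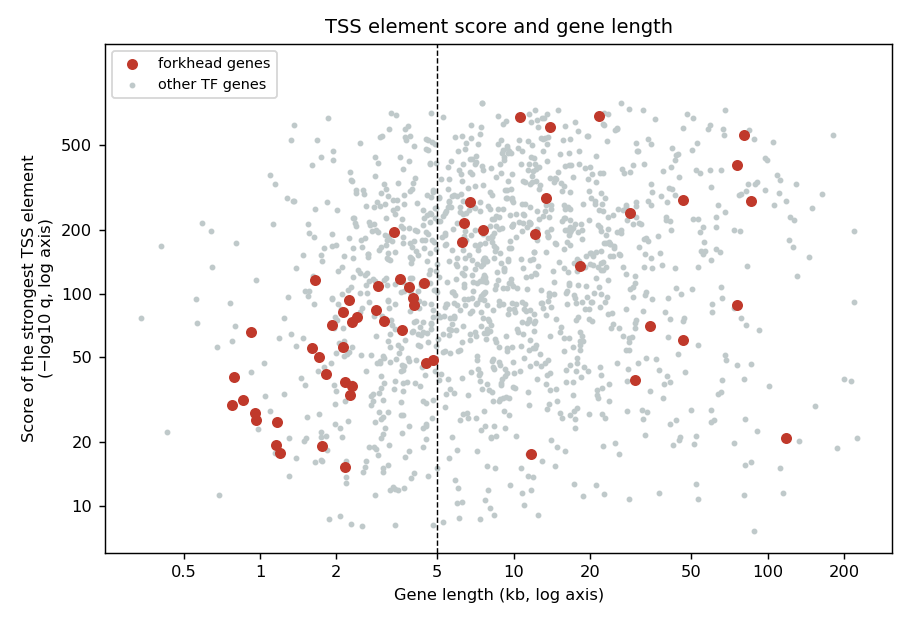
Score of the strongest TSS element (y axis, −log10 q, log axis) against gene length in kb (x axis, log axis) for 57 forkhead genes and 1327 other TF genes; the dashed line marks 5 kb. Forkhead genes up to 5 kb lie between 15.2 and 195, and those over 5 kb reach 689, with foxn1 and foxp2 low among them.

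At 8 genes the strongest TSS element also lay within 1 kb of an end of another RefSeq gene, among them foxm1, foxn1 (72 bp from slc46a1), foxd4, foxf1 and the foxj3 gene on chromosome 7. The median score of these 8 was 92.0, against 73.7 for the other 49, and which of the 2 genes such an element belongs to was not tested. How often this holds for other TF genes was not counted, so the 8 show no trait of forkhead genes.

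No element lay within 1 kb of the TSS of 5 forkhead genes. At foxi3b, an ionocyte gene in zebrafish, the nearest element was 1.21 kb downstream with a score of 17.8, and its RefSeq start lies 879 bp upstream of the start used. At foxf2a the nearest was 1.99 kb upstream with 29.9, and this is the TSS element of its neighbour foxq1a. LOC100301625 had an element of 76.5 at 2.61 kb downstream and one of 547 with 17 peaks at 3.47 kb upstream, which lies at the start of pias4. For foxr2 the nearest was 3.35 kb upstream with 17. For foxp3 it was 9.28 kb downstream with 333 and 9 peaks, 70 bp from an end of trappc6b. The RefSeq start of foxp3, 13.6 kb upstream of the start used, had no element within 1 kb either.

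For 55 of the 62 genes (88.7%) the strongest element of the window lay away from the TSS, against 80.4% of other TF genes, 91.2% of Homeobox genes and 68.3% of HMG genes. It was at the TSS for 7 genes, the foxj3 gene on chromosome 5, foxk2, foxn2, foxn3, foxo1, LOC101160853 and LOC101173216, all of them over 5 kb long. With the RefSeq start, the strongest element lay away from the TSS at the foxj3 gene on chromosome 5 and at LOC101173216. It then lay at the TSS of foxm1, but also 45 bp from an end of rhno1. Of the 55 strongest elements away from the TSS, 32 lay within 1 kb of an end of another RefSeq gene, 12 between genes, 6 inside another gene and 5 in the forkhead gene. Upstream of the TSS lay 31 and downstream 24, at a median distance of 23.2 kb, and 42 were merged from 9 or more peaks. For other TF genes these places, sides and peak numbers were not counted, so the split shows no trait of forkhead genes. The strongest element of the window had a median score of 305 for forkhead genes and 302 for other TF genes.

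The highest values of this kind stood at other genes. In the window of the foxj3 gene on chromosome 7 an element of 783 lay 8.74 kb upstream, at an end of rimklb. In that of LOC100301625 one of 699 lay 47.6 kb away, in that of foxn4 one of 658 lay 45.5 kb away at mmab, and in that of foxo4 one of 643 lay 19.6 kb away. For foxa3 one of 608 with 17 peaks lay 7.99 kb upstream, and for foxj1 one of 593 lay 40.5 kb from its TSS. For foxh1 one of 582 lay 33.2 kb away at pdia4. All of these were within 1 kb of an end of another gene. The next highest, 560 with 9 peaks, lay 39.1 kb upstream of the foxb1 gene on chromosome 3. It was placed between genes, 1359 bp from an end of LOC101165868. To which gene these elements belong was not tested.

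Elements that were closest to the forkhead gene and away from gene ends were found for 54 genes. They lay over 1 kb from its start and end in the study's list and from the ends of other RefSeq genes. The strongest such element had a higher score than the strongest TSS element in 32 of the 52 genes that had both. This was so in 23 of 33 where it lay between genes and in 9 of 19 where it lay in the forkhead gene. The tally sets the strongest of often many elements against the strongest of the few at a TSS, which favours the former. It was not made for other TF genes, so it shows no trait of forkhead genes. Inside genes over 5 kb the strongest such element had a median of 196 over 17 genes and a range of 26.7 at foxm1 to 382 at foxk1. The forkhead gene's own RefSeq ends were not excluded. The elements taken for foxm1, foxa1 and the foxo3 gene on chromosome 22 lay within 1 kb of such an end. In foxk1 an element of 382 with 9 peaks lay 4.75 kb downstream of the TSS (chr1:22003773-22004103), above its TSS element of 283. In foxn3 one of 376 lay at 18.9 kb (chr24:4231727-4232844), in foxo3 on chromosome 24 one of 360 lay at 14.5 kb (chr24:7559021-7559628) and in foxp4 one of 353 with 11 peaks lay at 34.3 kb (chr5:28327827-28328586). In foxo6a one of 325 with 7 peaks lay at 17.1 kb, over a TSS element of 39.3. In foxp2, whose TSS element had 20.9, the strongest inside the gene had 136 and lay 9.46 kb downstream, and one of 228 with 10 peaks lay between genes 14.9 kb upstream, though closer to ppp1r3a than to foxp2.

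Between genes, the strongest of the elements closest to a forkhead gene was near foxi3. It lay 36.3 kb upstream (chr22:21958523-21958906) with a score of 313 and 7 peaks, and a second of 237 lay 18.9 kb upstream, both above the 83.7 of the TSS element. All 19 elements around foxi3 other than the one at its TSS lay between genes. At foxl2 an element of 257 with 9 peaks lay 42.0 kb upstream (chr13:31857578-31857895), while the TSS element had 19.3. At foxj1 one of 225 with 4 peaks lay 9.49 kb downstream, beyond the gene. For foxa3 one of 188 lay 20.8 kb downstream, for foxd1 one of 185 with 10 peaks lay 14.5 kb downstream, for foxa2 one of 144 lay 3.31 kb downstream, just past the gene, for foxi2 one of 143 lay 5.65 kb downstream, and for foxd3 one of 134 lay 24.7 kb upstream. In these genes, taken from the upper end of the range, the distant element scored above the TSS element. It scored below it at others, as at foxk2, with 105 between genes and 610 at the TSS, and at foxh1, with 29.6 between genes and 195 at the TSS. Which gene such an element acts on was not tested.

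Forkhead genes of classes F and C lie side by side in 2 loci. On chromosome 17, foxq1a, foxf2a and foxc1a follow each other on the forward strand within 13.7 kb (chr17:26527827-26541501). On chromosome 4, LOC101164223, foxf2 and foxc1 follow each other in the direction of transcription on the reverse strand within 33.0 kb (chr4:21052774-21085731), so that FOXF and FOXC genes have the same order in both. The TSS of the FOXF gene is 9.65 kb from that of foxc1a on chromosome 17 and 25.6 kb from that of foxc1 on chromosome 4. The genome holds 197 elements per Mb. With 50 kb on each side, the locus of foxc1 held 57 elements (429 per Mb) and the locus of foxc1a 33 (290.3 per Mb). The windows of single genes held a median of 28.5 elements (quartiles 24 and 34) for forkhead genes and 25 for other TF genes. The window of foxc1 held 50, the most of the family, and that of foxc1a 31, inside the forkhead quartiles.

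Elements of the foxc1 locus on chromosome 4 were many but weak, with a median score of 22.3, none merged from 9 or more peaks and 19 of 57 (33.3%) from a single peak. In the foxc1a locus on chromosome 17 the median was 29.9, with 3 merged from 9 or more peaks and 6 of 33 (18.2%) from a single one. The strongest element of the foxc1 locus, 170.9 with 8 peaks, lay 23.8 kb downstream of foxc1 inside gmds, and one of 125 lay at 17.7 kb. In the foxc1a locus an element of 171 with 9 peaks lay 15.2 kb downstream of foxc1a (chr17:26554332-26554751). The strongest there, 184 with 9 peaks, lay 45.9 kb upstream of foxq1a at an end of another gene. In the window of each FOXC gene the strongest element thus lay downstream, beyond the gene. Both scored below 212, the lower quartile of the strongest window element over forkhead genes. The strongest element closest to foxc1 and away from gene ends had 63.8 and lay 1.65 kb upstream. Whether the downstream elements of the FOXC genes correspond in sequence was not examined. Also side by side, with 5.38 kb between them, lay foxe3 and LOC100302451 on chromosome 4. Close to each other lay foxo4 and LOC101170028 on chromosome 10, so that 10 genes in all share elements and 52 do not.

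**Figure D5:**
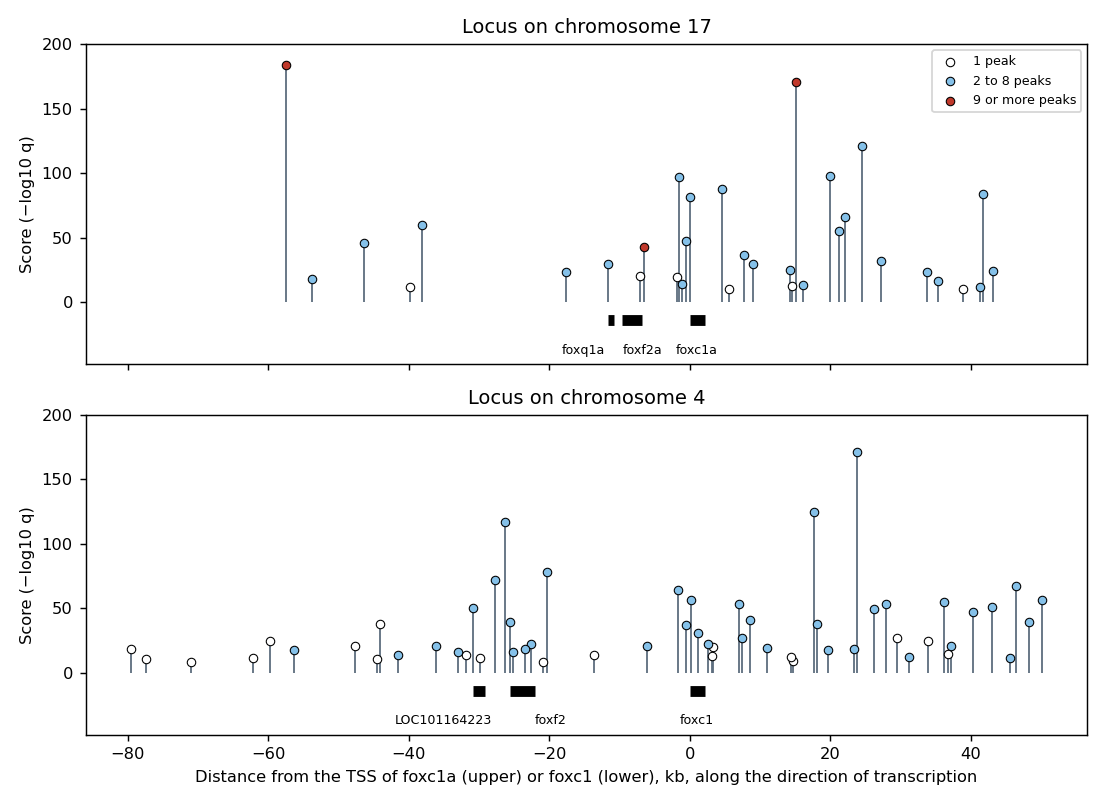
Score of each element (y axis, −log10 q) by distance in kb along the direction of transcription from the TSS of foxc1a (upper panel, chromosome 17) and foxc1 (lower panel, chromosome 4), with 50 kb on each side of the locus. Filled colour gives the number of merged peaks and black bars the forkhead genes; the upper panel has 33 elements and the lower 57, of which none is merged from 9 or more peaks.

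In make-up the elements of forkhead windows were close to those around other TF genes. Of the 1656 distinct elements, 403 (24.3%, 95% Wilson interval 22.3 to 26.5) came from a single peak, against 25.5% around other TF genes and 27.7% in the whole list. Elements of exactly 9 peaks made 11.0% around forkhead genes, 12.5% around other TF genes and 10.2% in the whole list. The median score was 35.3 in forkhead windows and 35.2 in the windows of other TF genes. The intervals cover counting error only, and windows of other TF genes can overlap those of forkhead genes.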

How the data were processed

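ATAC-seq libraries of 9 stages with 2 replicates each were processed by the authors, who list Trimmomatic 0.36, Bowtie2 2.3.4.1, Picard, MACS2 2.1.2, bedtools and deepTools. The replicates of a stage were combined, peaks called per stage, kept above a −log10 q of 7 and merged over the stages. The deposited score is read as a −log10 q value and the deposited whole number as the count of merged peaks. How scores of merged peaks were combined is not given in the sources used here. Scores have at most 5 decimals, and the count reaches 29, above the 9 stages, so some elements joined several peaks of 1 stage. Depth per library was not analysed here.

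The family and the gene coordinates with strand came from the study's list of TF genes. An element belonged to a gene if its midpoint was within 50 kb of the TSS, the start on the forward and the end on the reverse strand, and was a TSS element within 1 kb. Other genes came from the RefSeq table of ASM223467v1 (26832 genes on 24 chromosomes), which has no strand, so both ends were used. Genes were matched by their overlap relative to both. Sequences were not used here. Of the members, 2 enter the counts and medians but are not reported by name here. The work used Python 3.11.15 with pandas 2.3.3, SciPy 1.17.1, NumPy 2.4.6 and, for plots, Matplotlib 3.10.9, and the placing of elements was tested on simulated data.

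Named are the 10 genes with the most and the 5 with the fewest elements, the 5 with the strongest and the 5 with the weakest TSS element, those without one, the 10 with the strongest element in the window, genes within 100 kb of another member, and members of classes with a textbook role. The other named genes, the class sets and the elements away from gene ends were chosen after values had been seen. The members and lists were chosen with earlier results of these data known. No test was made, as the pooled list has no replicates. The alternatives changed the window, the TSS width, the elements used, their merging and the forkhead genes included. They were run on forkhead genes only, so the differences from other TF genes were not checked by them.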

Additional observations from a re-analysis of the deposited data

How the results depend on the processing

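Of 65 alternatives 9 moved a value beyond the error or limit set for it and 56 did not. For medians and the single-peak share this was a 95% interval. For the number of genes with a TSS element the limits were 38 and 85.5. For genes with the strongest element away from the TSS they were 36.7 and 82.5. The upper limits lie above the 62 genes, so no rise could count as a move. All 10 and all 13 alternatives of these counts were among the 56. The median number of elements per forkhead gene was 28.5, and became 15.5 with elements of at least the median score, 21 with a score above 20, 22 without single-peak elements, 22 with elements closer than 500 bp merged, 16 within 25 kb and 52.5 within 100 kb. The share of single-peak elements, 24.3%, became 3.86% with elements of at least the median score, 9.14% with a score above 20 and 19.9% after merging. The fewer elements or the changed window of each setting give these moves by construction. Over all 62 genes, the number with a TSS element (57) ran from 47 to 59. The number with the strongest element away from the TSS (55) ran from 52 to 57. Among the 52 genes whose windows do not overlap, these counts were 48 and 45, and the median number of elements was 26.5. The median TSS score (74.6) ran from 70.2 to 89.6. With the limit at 5 kb, the median TSS score of longer forkhead genes ran from 191 to 269 and that of shorter ones from 49.4 to 72.5. With a limit of 3 kb the medians were 135 and 41.2, and with 10 kb 238 and 66.6. Some alternatives were chosen after seeing the data. These were length limits of 3 and 10 kb, other TSS widths for the length split, the RefSeq start as TSS, and TSS elements near another gene left out. Outside the 65, other TF genes on chromosomes alone were also summarised after seeing the data. They had a median of 25 elements and a median TSS score of 127. No paired analysis was possible because the list pools the replicates and no test was made. The pooled list limits all values: it holds no stage, no replicate and no depth, TSS positions come from gene models, and an element near several genes cannot be given to one of them.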

Other observations

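Other regulatory genes lay within 50 kb of several forkhead genes, with distances taken from start to start. LOC100301602 on chromosome 24 lay 24.2 kb from nkx2-4, a homeobox gene, and both had weaker TSS elements than the median of other TF genes, 109 with 7 peaks at LOC100301602 and 23.7 with a single peak at nkx2-4. LOC101162366 lay 43.8 kb from hes4, a target of Notch signalling, whose TSS element had 531 with 9 peaks. LOC101160044 lay 6.22 kb from zglp1, whose TSS element had 113 with 9 peaks, and LOC101170028 lay 10.8 kb from fosl1, with 154 and 10 peaks. The space between the genes LOC101160044 and zglp1 was only 0.238 kb. A long non-coding RNA gene of the study's list started within 50 kb of 13 of the 62 forkhead genes (21.0%) and of 287 of the 1584 other TF genes (18.1%). One started 30.8 kb from the start of foxe1. Its TSS element had 181 with 9 peaks, above the 71.4 of foxe1 itself. The one upstream of foxq1a had 11.5 from a single peak.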
